A study of Mus musculus with 27 samples.

Results

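The transcriptome of hepatocytes from PWK/PhJ mice was compared with that of 8 other inbred strains: the wild-derived CAST/EiJ and WSB/EiJ, and 129S1/SvImJ, NZO/HlLtJ, A/J, NOD/ShiLtJ, C57BL/6J and DBA/2J. The PWK/PhJ libraries, 3 of 27 in all, were set against the 24 libraries of the other strains, with 3 libraries per strain and each strain weighted equally. All samples were labelled as hepatocytes from the livers of female mice 12 weeks old, and no treatment or engineered allele is named for any strain. Polyadenylated RNA was sequenced, and the wider study relates expression to histone marks and DNA methylation, which are not analysed here. The labels call the libraries of a strain biological replicates but do not say when or how each mouse was prepared. Strain therefore cannot be told apart from any condition shared by its 3 mice.

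PWK/PhJ is an inbred strain derived from wild mice of the subspecies Mus musculus musculus. CAST/EiJ and WSB/EiJ are also wild-derived, from other subspecies, whereas the remaining strains are classical laboratory strains that descend mostly from Mus musculus domesticus. Hepatocytes are the main cells of the liver: they make plasma proteins and bile acids, handle lipids and glucose, and clear foreign compounds through cytochrome P450, conjugating and ester-splitting enzymes. Many genes for these enzymes lie in clusters of similar copies, so a read may match several of them.

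Total counts ran from 26799648 to 28533833 in the PWK/PhJ libraries and from 17015932 to 35078483 in the others. Pearson correlations of log2 expression across genes, which are not independent replicates, were 0.974 to 0.988 among the PWK/PhJ libraries and 0.885 to 0.938 between them and the others. The labelled cell type was checked with 14 hepatocyte markers, albumin among them. Their mean log2 CPM (counts scaled to the size of the library) was 12.0 to 12.1 in PWK/PhJ and 11.8 to 12.7 in the other libraries. PWK/PhJ library 1 stood apart from its 2 partners. Its mean log2 CPM over 16 liver endothelial markers was 6.06, against 4.39 and 4.62 in libraries 2 and 3 and 2.19 to 4.70 in the 24 others. Over 16 Kupffer cell and macrophage markers it was 3.88, against 2.31 and 2.51 in the partners and 0.995 to 4.04 in the others. The counts of separated genes and many counts of list members are given with and without it. In these bulk samples, fewer cells of a type and less RNA per cell cannot be told apart.

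**Figure D1:**
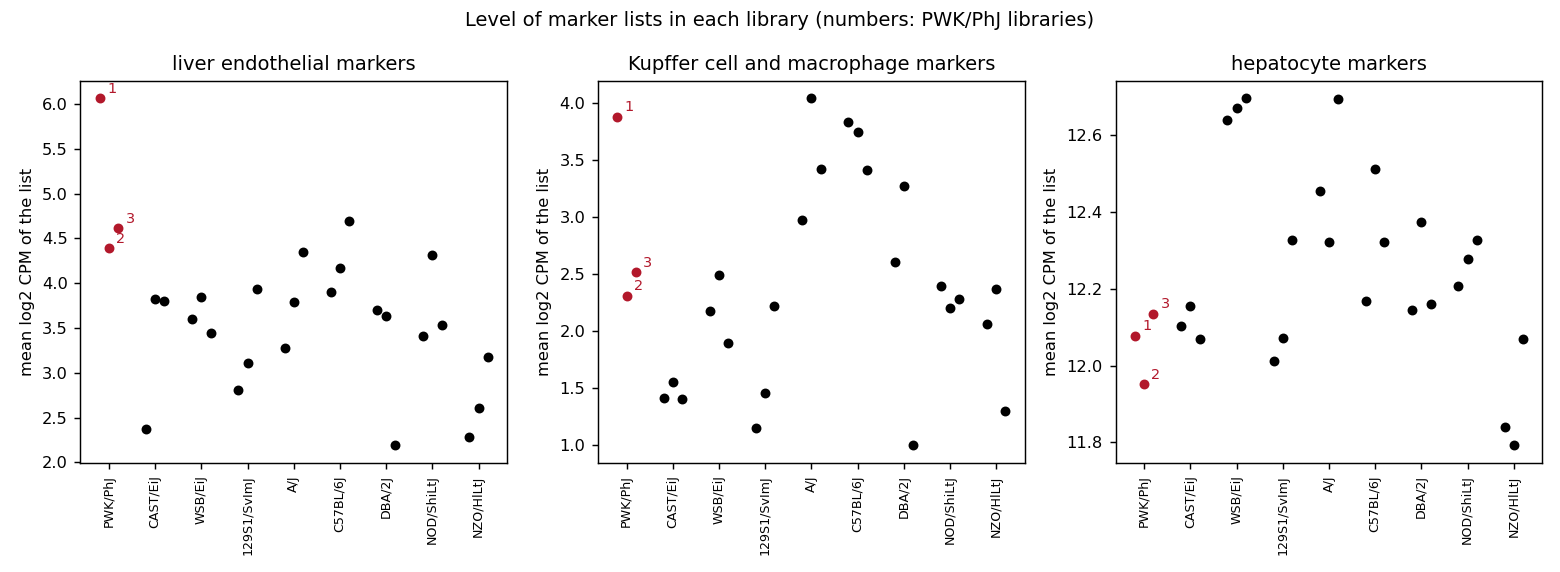
Mean log2 CPM of 3 marker lists in each of the 27 libraries, by strain, with PWK/PhJ in red and its libraries numbered. PWK/PhJ library 1 is the highest library for the endothelial list at 6.06, while the hepatocyte list lies between 11.8 and 12.7 in all libraries.

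Of 14482 genes tested with edgeR's quasi-likelihood test, 4950 (34.2%) differed between PWK/PhJ and the mean of the 8 other strains at an adjusted p under 0.05. Of these, 2812 (19.4%) were higher and 2138 (14.8%) were lower in PWK/PhJ. A gene can pass this contrast because a few of the other strains differ from the rest, so a stricter definition was used for genes particular to PWK/PhJ. A gene was called separated when it passed the contrast and also each of the 8 tests of PWK/PhJ against a single strain, always in the same direction. By this definition 649 genes (4.48%) were separated, 323 of them higher (2.23%) and 326 lower (2.25%). Without PWK/PhJ library 1, 247 were separated higher and 324 lower, and 487 of the 649 genes were separated in both fits.

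The same count was made for each other strain. CAST/EiJ had 818 separated genes, WSB/EiJ had 212, and the classical strains had 48 (NOD/ShiLtJ) to 103 (NZO/HlLtJ). The 9 counts come from a single fit and share libraries, and the difference between them was not tested. The median size of the PWK/PhJ contrast over its separated genes was 2.39 on the log2 scale, and the median size of the change from the closest strain was 1.44. A change of at least 2-fold from the closest strain was seen for 416 genes. For 163 genes, 63 higher and 100 lower in PWK/PhJ, it was at least 8-fold. The closest strain was most often CAST/EiJ, for 148 genes (22.8%), and least often 129S1/SvImJ, for 46 genes (7.09%).

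**Figure D2:**
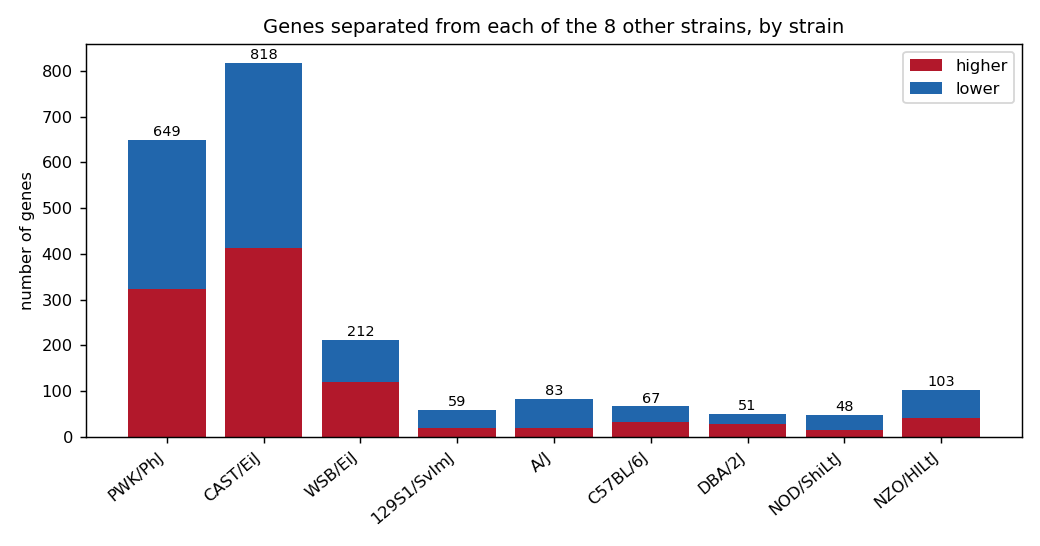
Number of genes separated from each of the 8 other strains, for every strain in turn, stacked by direction. PWK/PhJ has 649 and CAST/EiJ has 818, and each other strain has 212 or fewer.

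Separated genes were spread over the genome. On the autosomes and the X chromosome the share of tested genes that were separated ran from 3.29% on chromosome 11 to 6.10% on chromosome 19. Neighbouring tested genes separated in the same direction formed 27 runs with 57 genes in all, 17 runs higher and 10 lower. Of these runs, 3 held 3 genes each: Npdc1, Abca2 and Paxx, and Rexo4, Adamts13 and Cacfd1, were higher on chromosome 2, and Rad54b, Fsbp and Gm11832 were lower on chromosome 4. The pairs included the lipid droplet genes Pnpla5 and Pnpla3, the class II antigen-presenting chains H2-Ab1 and H2-Aa, and the ketone-using enzyme Oxct1 with the complement gene C6, each pair higher in PWK/PhJ. Crhr2 with Inmt, and the interferon-inducible Ifi27 with Ifi27l2a, were lower pairs. The genes of these runs were named after their values were seen.

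**Figure D3:**
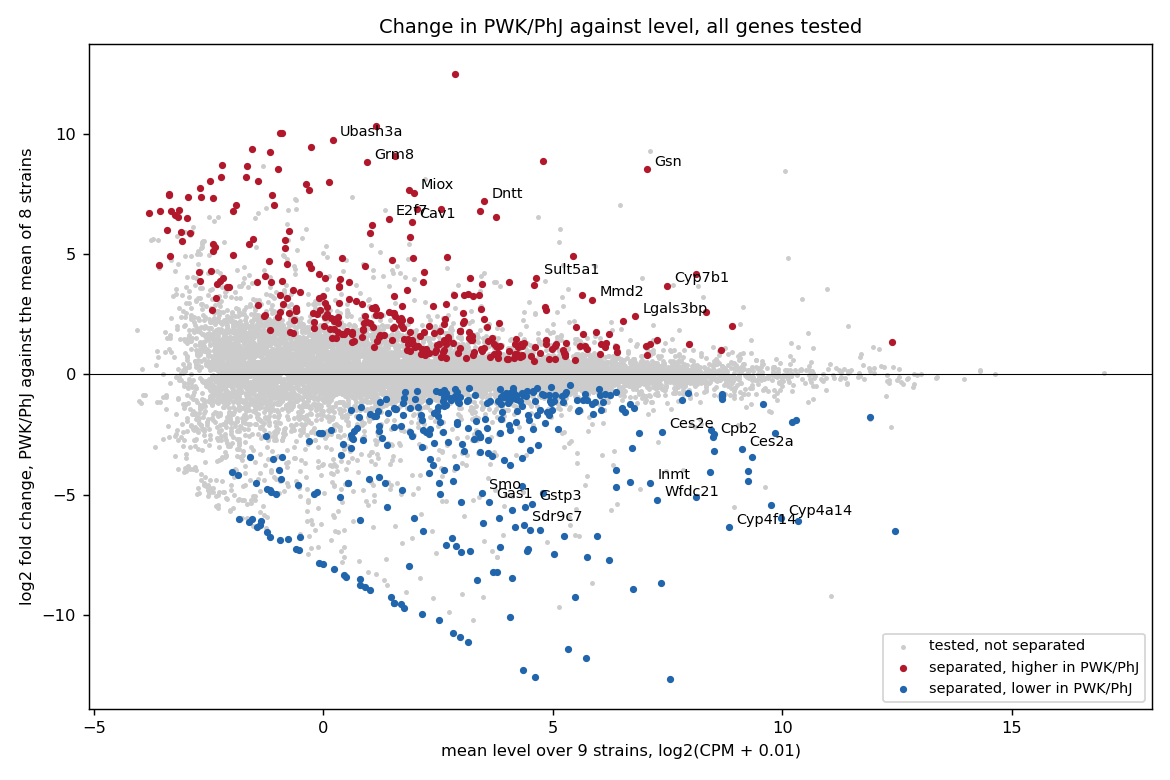
Log2 fold change of PWK/PhJ against the mean of the 8 other strains, plotted against the mean level over the 9 strains on the log2(CPM + 0.01) scale, for all 14482 genes tested. The 323 genes separated higher are red, the 326 separated lower are blue, and the text labels mark genes described below with mostly whole counts.

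For 4 genes with very large changes, the DNA before the start site is shown so that a reader can see where the transcript begins and which core promoter letters the reference holds. They are the 2 largest fitted changes in each direction among the named genes with whole counts for which RefSeq lists a single start on GRCm38.p6. For Ubash3a this rank rests on 3 counts or fewer in every library of the other strains. Each stretch is the 150 bases that end just before that start, read 5′ to 3′ on the gene's strand. This is the C57BL/6J reference, and the PWK/PhJ alleles are not shown. Matches on either strand to 3 short motifs are in capitals, and none of these matches overlap. The first motif is TATAAA, which the general transcription machinery can bind. Further upstream, many promoters carry the motif CCAAT, bound by nuclear factor Y. The last one searched, part of many nuclear receptor sites, is AGGTCA.
Miox, chr15:89334323-89334472, plus strand, higher in PWK/PhJ: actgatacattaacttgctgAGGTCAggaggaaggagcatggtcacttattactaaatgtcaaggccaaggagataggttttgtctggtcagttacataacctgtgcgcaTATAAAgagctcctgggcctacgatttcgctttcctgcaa
Ubash3a, chr17:31207916-31208065, plus strand, higher in PWK/PhJ: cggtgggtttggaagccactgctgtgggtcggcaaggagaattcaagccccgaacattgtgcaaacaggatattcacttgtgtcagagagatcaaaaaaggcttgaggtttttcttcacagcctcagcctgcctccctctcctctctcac
Sdr9c7, chr10:127898385-127898534, plus strand, lower in PWK/PhJ: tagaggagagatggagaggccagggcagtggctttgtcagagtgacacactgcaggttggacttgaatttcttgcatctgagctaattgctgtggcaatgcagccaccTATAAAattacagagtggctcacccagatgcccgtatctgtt
Gstp3, chr19:4059448-4059597, minus strand, lower in PWK/PhJ: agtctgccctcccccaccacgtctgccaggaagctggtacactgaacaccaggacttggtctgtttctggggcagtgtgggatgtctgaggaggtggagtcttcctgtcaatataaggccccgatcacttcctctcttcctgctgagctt
TATAAA begins 40 bases before the start of Miox and 42 bases before that of Sdr9c7. It occurs in 7.57% of 32851 reference windows of the same length, the nuclear factor Y motif in 24.5% and the receptor motif in 8.58%. A match is only a run of letters, and binding at these windows was not measured here.

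Among genes with mostly whole counts, the fitted increases were led by Ubash3a, Grm8, Gsn, Miox, Dntt, E2f7 and Cav1, each well outside the range of the 24 other libraries. The first place of Ubash3a is uncertain, since it held 3 counts or fewer in each of those libraries. Gsn (ENSMUSG00000026879), on the plus strand of chromosome 2 from 35256380 to 35307892 in GRCm38, encodes the actin-severing protein gelsolin. Its level was 1715, 878 and 828 CPM in PWK/PhJ libraries 1 to 3, against a lowest, median and highest of 0.296, 2.50 and 44.0 CPM in the others. The strain nearest to it was WSB/EiJ, with a mean of 30.2 CPM, and CAST/EiJ was lowest at 0.595 CPM. The log2 fold change was 8.53 ± 0.18 (SE; edgeR adjusted p = 2.4e-21), and 8.11 without PWK/PhJ library 1.

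Dntt encodes the terminal transferase that adds nucleotides to antigen receptor genes in lymphocyte precursors. It stood at 62.5, 113 and 98.5 CPM in PWK/PhJ, against 0 to 3.97 CPM elsewhere (log2 fold change 7.19 ± 0.25, edgeR adjusted p = 3.3e-17). Library 1, the library with the high endothelial markers, was the lowest of the 3 for Dntt. Miox, the myo-inositol oxygenase best known from kidney, had 30.1, 34.4 and 35.9 CPM in PWK/PhJ and at most 0.682 CPM in any other library. Its log2 fold change was 7.56 ± 0.23 (edgeR adjusted p = 3.3e-18). Ubash3a, a regulator of T cell receptor signalling, reached 10.3, 13.8 and 6.24 CPM, and in all other libraries it held 3 counts or fewer. No fold change is given against counts this low. Of 12 lymphocyte markers only 1 passed the filter on low counts, and it did not pass the test. Neither Dntt nor Ubash3a is on that list. The mean log2 CPM of the tested marker was -0.41 in PWK/PhJ library 1, above the -0.86 of the highest other library, and -1.39 and -1.89 in libraries 2 and 3. The part of lymphocyte RNA in the levels of Dntt and Ubash3a was not tested.

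The glutamate receptor gene Grm8 had 20.01, 12.2 and 17.99 CPM, against at most 0.321 CPM elsewhere. E2f7, a repressor of the E2F family that acts in the cell cycle and in liver polyploidy, had 24.5, 19.4 and 21.2 CPM, against at most 1.63 CPM. Cav1 encodes caveolin, a membrane coat protein abundant in endothelium, fat and fibroblasts, and was read at 46.2, 10.8 and 36.0 CPM, against at most 0.887 CPM. Their log2 fold changes were 8.81 ± 0.35, 6.47 ± 0.27 and 6.36 ± 0.27 (SE; largest edgeR adjusted p = 3.5e-14). Cav1 was called with a log2 fold change of 5.95 without PWK/PhJ library 1. Library 2, the lowest of the 3 for Cav1, was also the lowest for the endothelial list. With the endothelial and Kupffer list means as covariates (called the marker covariates below), Cav1 had a log2 fold change of 5.06 (edgeR adjusted p = 3.9e-09). For the endothelial list, only 1 of the 24 other libraries lay above the lowest PWK/PhJ library. The covariates thus overlap with strain. This fit can remove a strain difference along with a difference in cell mix, and cannot tell them apart.

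Among genes above 100 CPM, Cyp7b1 rose from a mean of 94.9 CPM in the other strains to 864 ± 78.8 CPM (SD, n = 3). Cyp7b1 is an oxysterol hydroxylase of the alternative bile acid pathway and is male-biased in mouse liver. Its libraries held 955, 821 and 816 CPM, against 25.9 to 478 CPM. Only CAST/EiJ, at 373 CPM, came near, and the other strain means ran from 38.3 to 97.4 CPM. The log2 fold change was 3.68 ± 0.16 (edgeR adjusted p = 3.4e-15). The sulfotransferase Sult5a1 was almost the same in the 3 libraries, at 116, 119.5 and 116 CPM, against 0.0516 to 38.2 CPM elsewhere (4.01 ± 0.22 on the log2 scale). CAST/EiJ was at the other extreme for this gene, at 0.166 CPM. Mmd2, a membrane protein of the progestin and adipoQ receptor family, had 274, 210 and 177 CPM against 2.51 to 146 CPM, with WSB/EiJ nearest. Lgals3bp, a secreted glycoprotein that binds galectins, had 499, 388 and 278 CPM against 38.8 to 168 CPM.

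**Figure D4:**
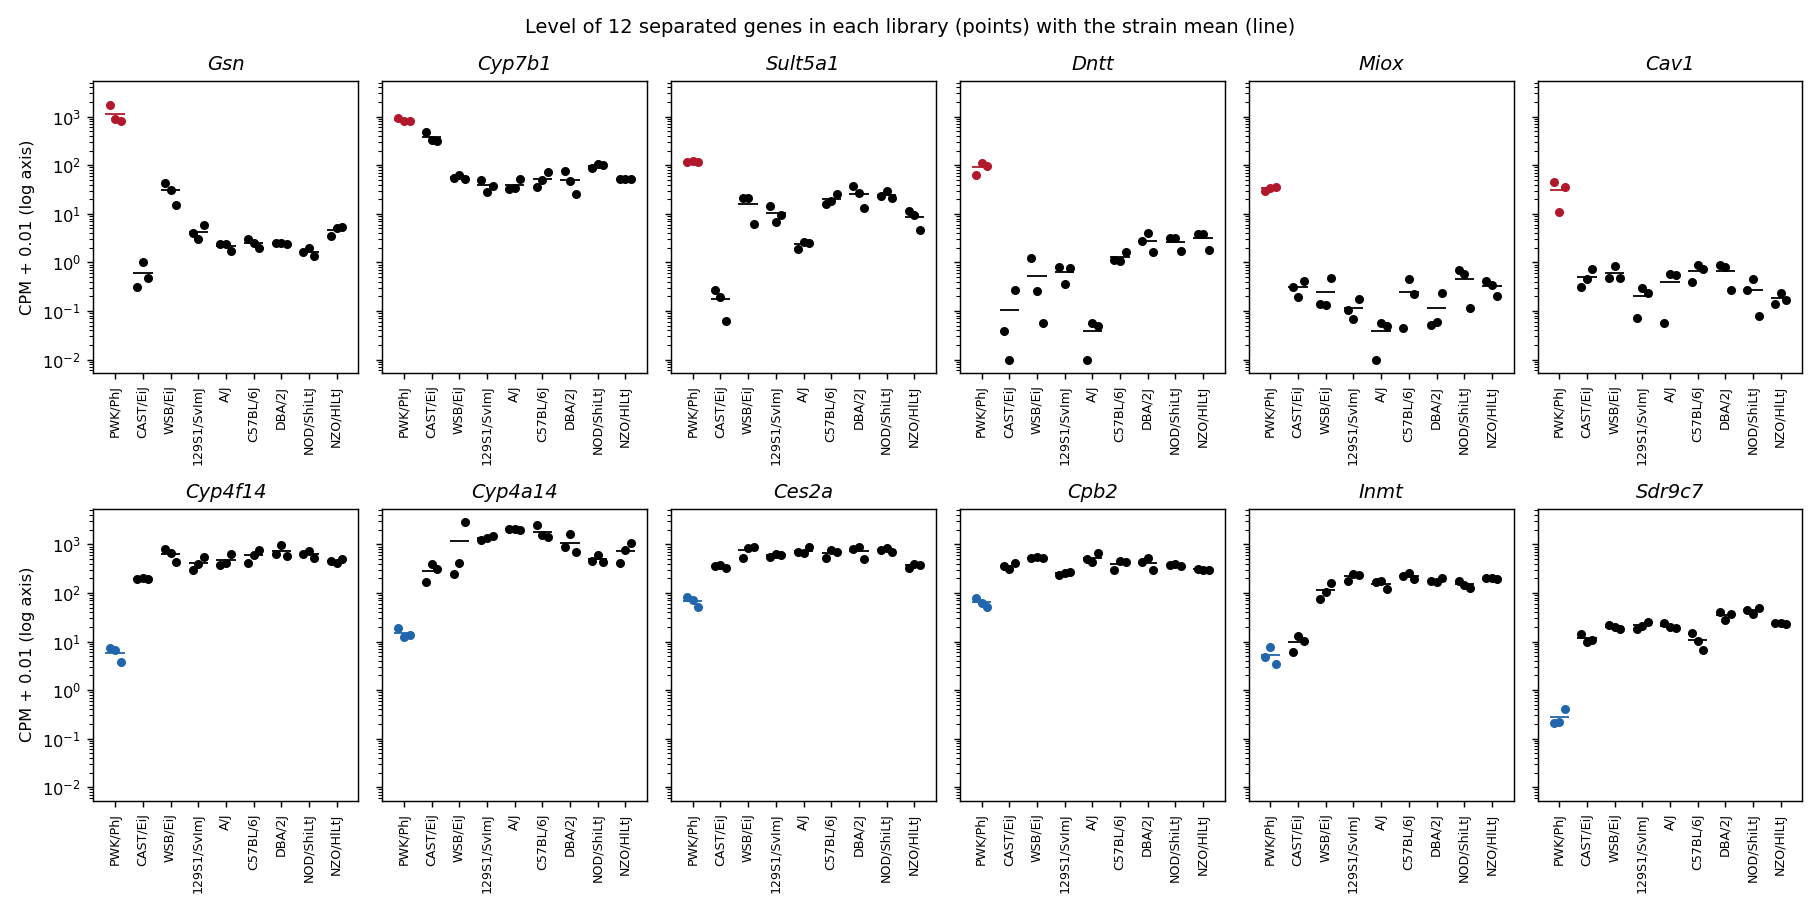
CPM + 0.01 on a log axis for 12 separated genes in each library (points) with the strain mean (line), 6 higher in PWK/PhJ (red) and 6 lower (blue). Gsn sits at 828 to 1715 CPM in PWK/PhJ and at 44.0 CPM or less elsewhere, and Inmt is low in CAST/EiJ as well as in PWK/PhJ.

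The largest decreases among genes with mostly whole counts were Cyp4f14, Sdr9c7, Cyp4a14, Gstp3, Gas1, Wfdc21 and Smo. Cyp4f14 (ENSMUSG00000024292, minus strand of chromosome 17, 32905070 to 32917342) hydroxylates leukotrienes and fatty acids. It had 7.31, 6.60 and 3.85 CPM in PWK/PhJ, against a lowest, median and highest of 190, 509 and 967 CPM in the others. Every PWK/PhJ library was thus far below the lowest other library, which was of CAST/EiJ, the strain with the smallest mean (197 CPM). The log2 fold change was -6.35 ± 0.33 (edgeR adjusted p = 1.3e-13).

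Cyp4a14, a fatty acid hydroxylase that is a classical target of the receptor PPAR-alpha, fell from a mean of 1122 CPM to 15.0 ± 3.39 CPM (SD, n = 3). The PWK/PhJ libraries held 18.8, 12.6 and 13.5 CPM, and the others 169 to 2883 CPM, a wide range within which no library came close. The log2 fold change was -5.99 ± 0.65 (edgeR adjusted p = 7.3e-08). Sdr9c7, a short-chain dehydrogenase, had 0.200, 0.206 and 0.398 CPM, against 6.73 to 49.0 CPM. Gstp3, of the pi class of glutathione S-transferases, had 0.200 to 0.299 CPM, against 3.35 to 165 CPM, and CAST/EiJ was here the highest strain at 154 CPM. Thus the 2 strains lay at opposite ends for Gstp3, as they did for Sult5a1 and Gsn.

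Gas1 and Smo both encode membrane proteins of hedgehog signalling, a co-receptor and the signal transducer. Gas1 had 0.399, 0.172 and 0.232 CPM against 0.887 to 28.0 CPM, and Smo had 0.439, 0.309 and 0.232 CPM against 2.50 to 25.6 CPM. Their log2 fold changes were -5.29 ± 0.34 and -4.91 ± 0.28. Wfdc21, a secreted protein of the whey acidic protein family, had 3.55, 3.37 and 1.92 CPM. NZO/HlLtJ, at 9.53 CPM, was its nearest strain, and 5 of the others lay between 236 and 291 CPM.

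Among decreases above 100 CPM, Inmt, an indolethylamine methyltransferase, had 4.87, 7.73 and 3.42 CPM, against 6.06 to 260 CPM. The CAST/EiJ mean was 9.88 CPM and the remaining strain means ran from 113 to 224 CPM, so Inmt set both of these strains apart and its ranges overlapped with CAST/EiJ. Ces2a and Ces2e, carboxylesterases that split drug and lipid esters, had means of 68.5 and 34.4 CPM, against 620 and 184 CPM. Cpb2, the carboxypeptidase that slows the breakdown of clots, had 79.3, 61.6 and 50.9 CPM against 238 to 654 CPM. The log2 fold changes of Ces2a, Ces2e and Cpb2 were -3.12 ± 0.21, -2.37 ± 0.25 and -2.59 ± 0.18 (largest edgeR adjusted p = 5.7e-08).

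For 279 of the 649 separated genes (43.0%) the deposited counts were not whole in at least 14 libraries, which means that reads were divided between similar sequences. This held for 29.1% of all tested genes. Values of such genes are uncertain for a single copy. Mterf3, a repressor of mitochondrial transcription, had 361, 310 and 248 CPM, against 7.07 to 15.5 CPM, and AK157302 had 14.9, 24.2 and 26.0 CPM, against at most 6.32 CPM. Their summed level was 274 to 375 CPM in PWK/PhJ and 7.07 to 21.9 CPM elsewhere, so the ranges also lay apart for the sum. Aph1c, a subunit of gamma-secretase, was at 52.9, 42.2 and 30.9 CPM against 0.121 to 4.09 CPM. Summed with Aph1a and Aph1b, it overlapped the others: 156 to 250 CPM against 81.5 to 167 CPM. Cyp4a12b, a fatty acid hydroxylase known as male-biased, was at 329, 135 and 130 CPM, against at most 87.5 CPM.

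On the lower side, Eno1b was at 0 to 0.240 CPM against 0.657 to 313 CPM. The low level was nearly shared by C57BL/6J, at a mean of 0.756 CPM, while the remaining strain means ran from 78.9 to 303 CPM. Summed with its parent enolase gene Eno1 it was 230 to 351 CPM in PWK/PhJ, inside the range of 156 to 448 CPM elsewhere. Cyp2c38 had 0.359, 0.344 and 0.232 CPM, against 7.79 to 429 CPM, with CAST/EiJ nearest at 8.16 CPM. Summed with other Cyp2c genes, it was 7050 to 8132 CPM in PWK/PhJ and 6284 to 20208 CPM elsewhere. For that sum, 20 other libraries lay above all of PWK/PhJ and 1 lay below. Sult2a2, a sulfotransferase of bile acids and steroids, had 0.166 to 0.309 CPM, against 3.61 to 176 CPM, again with CAST/EiJ nearest at 5.48 CPM. Summed with other Sult2a genes, it was 496 to 1001 CPM in PWK/PhJ, inside the range of 272 to 1212 CPM elsewhere. For that sum, 1 other library lay above all of PWK/PhJ and 11 lay below, so the sum did not show the decrease of Sult2a2. The dicarboxylate transporter Slc13a2 had at most 3 counts in each PWK/PhJ library, against 0.544 to 43.4 CPM in the others. A gene on the opposite strand overlaps it, and reads of the pair cannot be told apart without strand.

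Processed pseudogenes are copies of spliced messages put back into the genome. Of 465 tested, 73 (15.7%) were separated, 18 higher and 55 lower in PWK/PhJ, against 513 of 12820 protein-coding genes (4.00%), a difference in share that was not tested. Of the separated genes of all types, 70 held at most 3 counts in every PWK/PhJ library and 21 held at most 3 counts in every other library. Chosen after their values were seen, Rpl10a-ps1 had at most 1 count in each PWK/PhJ library and 37.0 to 82.4 CPM in the others, and Eif4a-ps4 had at most 1 count against 30.3 to 63.6 CPM. Whether these copies are absent from the PWK/PhJ genome or their reads were assigned elsewhere was not tested.

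Gene lists written for this work cover 27 functions and pathways. Their members are given as counts called by the contrast, to be read against the 19.4% called higher and 14.8% called lower over all genes, whose median log2 fold change was 0.0019. In foreign-compound metabolism, the cytochrome P450 genes of families 1 and 2, which include the main drug-metabolizing enzymes, had 17 of 39 tested members lower and 6 higher, with a median log2 fold change of -0.54. The 2 largest decreases with at least 5 CPM after Cyp2c38 were Cyp2a22, with 2.39 to 3.27 CPM against 5.04 to 343 CPM, and Cyp2b13, with 7.43 to 9.58 CPM against 1.83 to 731 CPM. Cyp2b13 was not particular to PWK/PhJ: it was 1.69 log2 units above 129S1/SvImJ. Cyp2c23, an epoxygenase of arachidonic acid, went the other way, with 1160, 728 and 595 CPM against 9.98 to 662 CPM, and CAST/EiJ was 0.59 log2 units lower than PWK/PhJ. Counts of Cyp2a22 and Cyp2b13 were divided between copies, as were those of Cyp3a59, Gsta2, Ces2b, Hamp2, C4a, Mx2, Tgtp2, Xaf1 and Hsd3b5 described below, and their values are uncertain. The 4 Cyp2a genes summed to 4516 to 6160 CPM in PWK/PhJ and 790 to 5976 CPM elsewhere, with 19 other libraries below all of PWK/PhJ. The 5 Cyp2b genes summed to 136 to 359 CPM and 34.7 to 2555 CPM, with 21 other libraries above all of PWK/PhJ. Without PWK/PhJ library 1, 16 members of the list were lower and 4 higher.

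Of the P450 genes of families 3a and 4, 10 of 22 members were higher and 4 lower, with a median of 0.60. The split was 8 higher and 4 lower without PWK/PhJ library 1, and 5 higher and 7 lower (median 0.23) with the endothelial and Kupffer list means as covariates, so the balance of calls turned with that setting. Beside Cyp4a12b (higher) and Cyp4a14 and Cyp4f14 (lower), Cyp3a59 had 3.03, 2.20 and 1.10 CPM against 1.29 to 111 CPM. WSB/EiJ was 0.67 log2 units lower than PWK/PhJ for Cyp3a59, so its low level was shared. The 6 Cyp4a genes summed to 936 to 1959 CPM in PWK/PhJ and 800 to 5569 CPM elsewhere, and the ranges of the sum overlapped.

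Of the conjugating enzymes, 13 of 31 UDP-glucuronosyltransferases and sulfotransferases were lower and 8 higher (median -0.17). Sult1e1, the estrogen sulfotransferase, had at most 0.0799 CPM in PWK/PhJ, with 0.0457 to 136 CPM in the others and a closest strain, CAST/EiJ, within 0.71 log2 units. Glutathione S-transferases had 9 of 23 higher and 7 lower (median 0.21). Gsta2, an alpha-class enzyme, rose with 78.8, 124 and 107 CPM against 5.38 to 113 CPM, at a level like that of CAST/EiJ (difference -0.01 on the log2 scale). Gstm2 and Gstm3, of the mu class, fell by 2.86 and 6.27 on the log2 scale, with uncertain values for Gstm3. NZO/HlLtJ was nearest for both, at 8.85 CPM for Gstm2 and 0.753 CPM for Gstm3, against 5.24 and 0.235 CPM in PWK/PhJ, so the low levels were not particular to it. Carboxylesterases had 7 of 16 lower and 4 higher (median -0.56). Ces2h was at 152, 109 and 77.5 CPM in PWK/PhJ, with a median of 0.570 CPM in the others, yet WSB/EiJ was 0.44 log2 units above PWK/PhJ. Ces2b was called higher (3.82 ± 0.25) although its arithmetic mean was lower, 10.4 against 13.6 CPM, since CAST/EiJ was 3.35 log2 units above PWK/PhJ and the contrast averages logs.

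**Figure D5:**
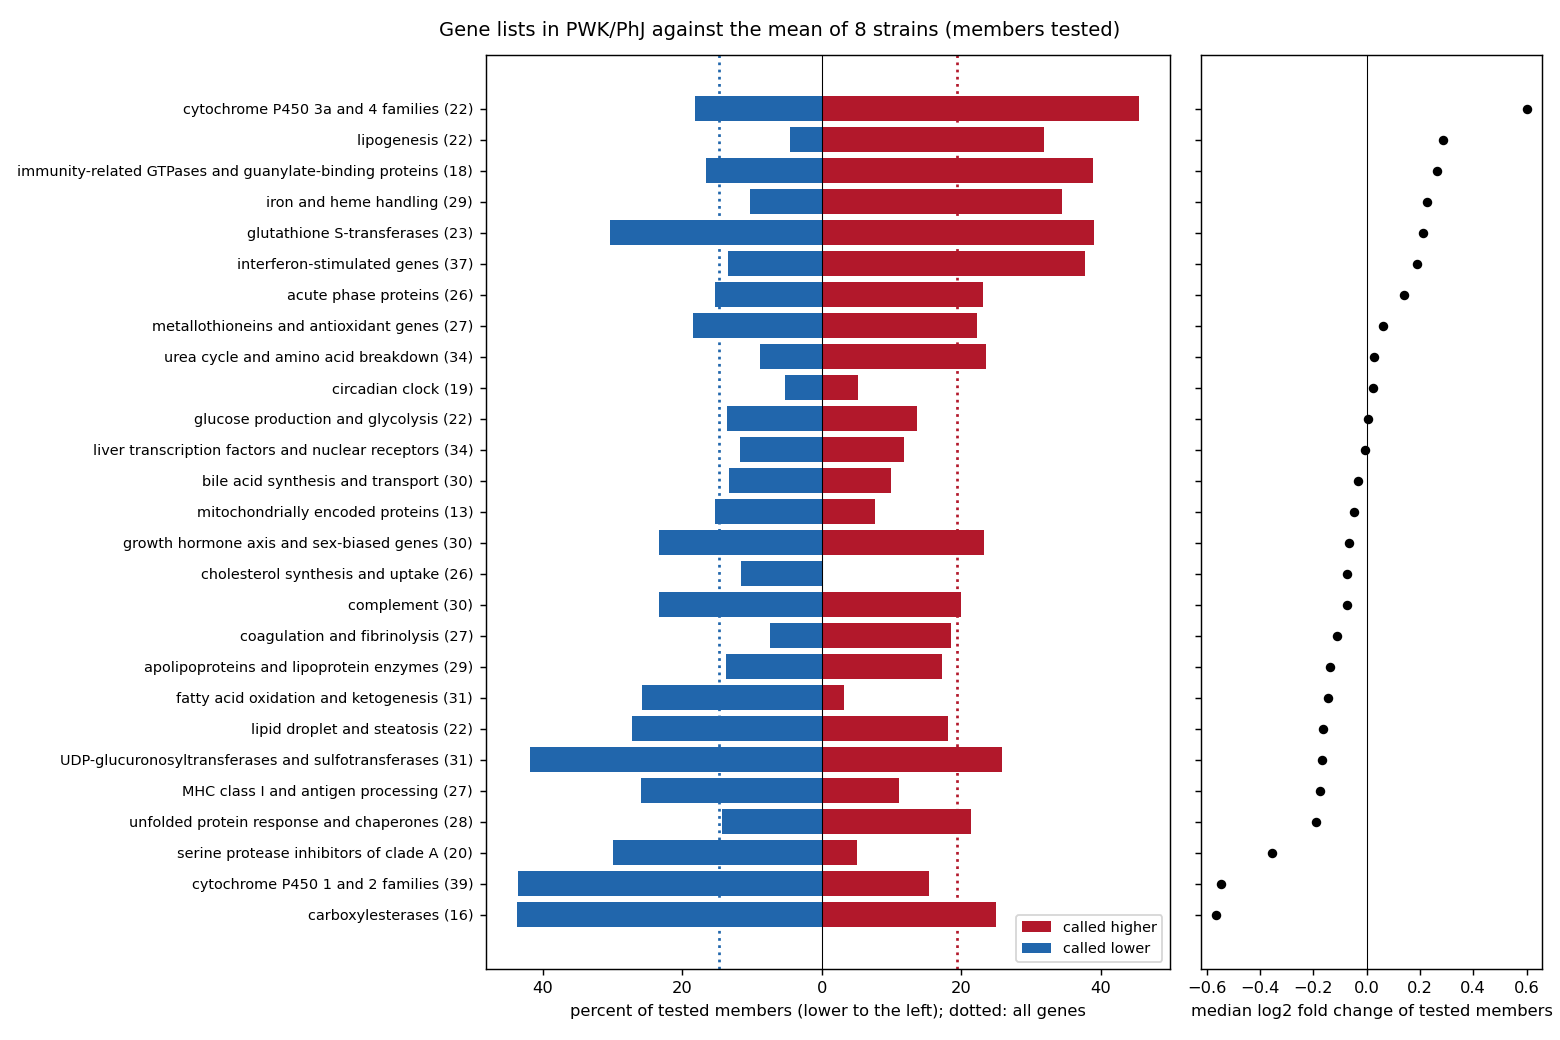
Percent of tested members called higher (right, red) or lower (left, blue) in each of the 27 function lists, with dotted lines at 19.4% and 14.8% for all genes, and the median log2 fold change of each list. Cytochrome P450 3a and 4 genes have the highest median at 0.60 and carboxylesterases the lowest at -0.56.

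In bile acid synthesis and transport, 3 of 30 members were higher and 4 lower, against 5 and 10 with the marker covariates. Cyp8b1, a sterol hydroxylase, was called higher (1.15 ± 0.25), and the exporter subunit Abcg5 (-0.50 ± 0.16) and the uptake transporter Slco1b2 (-0.48 ± 0.15) lower. These 3 were chosen after their values were seen. Cyp46a1, a cholesterol hydroxylase known mainly from brain, was at 142, 102 and 80.7 CPM against 1.37 to 101 CPM, with NOD/ShiLtJ within 0.21 log2 units. Cyp39a1, an oxysterol hydroxylase, was at 2.60, 1.86 and 2.29 CPM against 0.557 to 174 CPM, and NZO/HlLtJ was lower still by 1.64 log2 units. Cyp7b1 was the only separated member. The uptake transporter Slco1a4 fell by 1.16 on the log2 scale. In cholesterol synthesis and uptake, 3 of 26 members passed the test, each of them lower, and without library 1 the calls were 1 higher and 2 lower. Among them were Acat2, a thiolase that joins acetyl units (23.3, 38.9 and 41.5 CPM against 34.5 to 108 CPM; edgeR adjusted p = 5.0e-05), and Hsd17b7, a reductase of the later steps. The call of Hsd17b7 (-0.51 ± 0.19, adjusted p = 0.045) was near the threshold. It was lost without each of the PWK/PhJ libraries in turn (adjusted p = 0.12, 0.077 and 0.17), with other size factors (0.056) and in many other settings.

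Lipogenesis had 7 of 22 members higher and 1 lower (median 0.29). Pnpla3, a lipid droplet lipase and acyltransferase, had 26.6, 30.7 and 40.7 CPM in PWK/PhJ, against 0.230 to 12.1 CPM. It was the most changed member, with a log2 fold change of 3.29 ± 0.34 (edgeR adjusted p = 4.5e-08). Me1, the malic enzyme that supplies NADPH, had 166, 324 and 351 CPM against 55.4 to 173 CPM, with library 1 inside the range of the others. Its change was 1.25 ± 0.16. Gpam, the first enzyme of triglyceride assembly, rose by 0.76 ± 0.18, and was not called with the marker covariates (0.57, adjusted p = 0.10). Srebf1, the transcription factor of lipogenesis, was at 1186, 660 and 577 CPM against 223 to 880 CPM, with DBA/2J at the same mean level (difference -0.01 on the log2 scale). Without library 1 its change went from 0.78 to 0.39 (edgeR adjusted p = 0.29), and the list had 3 members higher and 1 lower. With the marker covariates the list had 2 higher and 4 lower (median 0.016), and Srebf1 was not called (0.63, adjusted p = 0.15). Pklr, the liver pyruvate kinase, was the lower member at -0.75 ± 0.19.

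In fatty acid oxidation and ketogenesis, 8 of 31 members were lower and 1 higher (median -0.15). Vnn1, a pantetheinase and a target of PPAR-alpha, was at 9.66, 8.14 and 7.10 CPM against 3.71 to 242 CPM, with CAST/EiJ 0.61 log2 units lower still. Pdk4, the kinase that shuts down pyruvate dehydrogenase in fasting, fell by 1.79 ± 0.39 (-1.32 with the marker covariates, adjusted p = 0.0502), with WSB/EiJ 0.13 log2 units lower still, and the thioesterase Acot2 by 1.63 ± 0.25. Acaa1a, a peroxisomal thiolase, fell by 0.71 ± 0.15, with 73.1 to 80.3 CPM against 89.6 to 186 CPM and no overlap. Ppara itself, the receptor gene, fell by 0.62 ± 0.21 (edgeR adjusted p = 0.027) and was not called without library 1 or library 2 (adjusted p = 0.13 and 0.14) or with the marker covariates (-0.22, 0.57). Without library 1, 5 members were called, each lower, and the median was -0.0048. No member of this list was separated. Of the lipid droplet list, 4 of 22 were higher and 6 lower, against 3 and 3 without library 1. Fabp4, a fatty acid carrier of fat cells, macrophages and capillary endothelium, was at 13.9, 5.60 and 5.21 CPM against at most 1.21 CPM. Its change was 3.86 ± 0.32, 3.25 without library 1 and 2.33 with the marker covariates (adjusted p = 0.00035). The lipoprotein receptor Vldlr fell by 2.62 ± 0.41.

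Glucose genes had 3 of 22 members higher and 3 lower. Pfkl, the liver phosphofructokinase of glycolysis, was separated higher, at 50.9, 66.1 and 62.0 CPM against 16.1 to 33.8 CPM (1.27 ± 0.10, edgeR adjusted p = 2.7e-10). Pck1, which catalyses the committed step of glucose production, was at 241, 244 and 1526 CPM in the 3 libraries, against 298 to 3153 CPM. Its call as lower (adjusted p = 0.045) was lost in several fits, among them those without library 1 (0.25), and its 3 values do not describe a common level. In the urea cycle and amino acid breakdown, 8 of 34 were higher and 3 lower. The amino acid lyase Hal was at 749 to 844 CPM against 175 to 853 CPM, and Gls2, the liver glutaminase, at 538 to 636 CPM against 124 to 684 CPM. WSB/EiJ had levels within 0.12 log2 units of PWK/PhJ for both.

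Among secreted proteins, the acute phase list had 6 of 26 higher and 4 lower, against 3 higher and 6 lower without library 1. Hpx, the plasma carrier of heme, was at 15147, 10141 and 8262 CPM, against 2392 to 7611 CPM. It was separated, at 1.33 ± 0.17 (edgeR adjusted p = 7.8e-07). Without library 1 its change was 1.05 and it was no longer separated. Orm1, an acid glycoprotein that binds drugs, was at 66.8, 35.9 and 18.6 CPM, against 262 to 1154 CPM. The 3 Orm genes summed to 33.4 to 115 CPM against 289 to 1247 CPM, and the ranges of the sum did not overlap. Hamp2, related to the iron hormone hepcidin, was at 5300, 3714 and 3620 CPM against a median of 314 CPM, but DBA/2J was at the same level (difference -0.05). Saa2, a serum amyloid, was at 185, 40.6 and 12.8 CPM, and its call was lost without library 1 (adjusted p = 0.41). Of the iron and heme list, 10 of 29 members were higher and 3 lower (median 0.22). Without library 1 the split was 7 and 3. Alas1, the first enzyme of heme synthesis, was at 19.3, 40.7 and 101 CPM, against 64.6 to 409 CPM, and was not called without library 1 or library 2 (adjusted p = 0.13 and 0.10).

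The clade A serpins, which include the antitrypsin copies, had 6 of 20 members lower and 1 higher. Serpina1c was at 68.8, 47.2 and 49.6 CPM against 794 to 15796 CPM, and Serpina1e at 78.7, 26.9 and 51.4 CPM against 98.8 to 2896 CPM. The 5 Serpina1 copies summed to 18037 to 23886 CPM, inside the range of 12336 to 51548 CPM elsewhere, so the copies differed and their sum overlapped. Serpina3m, of the antichymotrypsin cluster, was at 301, 291 and 235 CPM against 408 to 3070 CPM. Complement had 6 of 30 higher and 7 lower. C6, a pore-forming component that is male-biased in mouse liver, was at 120, 55.5 and 76.0 CPM against 1.49 to 32.8 CPM (3.84 ± 0.22, edgeR adjusted p = 6.6e-13). C4a, a copy of the fourth component, was at 8.27, 4.47 and 4.61 CPM, level with 129S1/SvImJ (difference -0.01). Cd55, which holds back complement on cell surfaces, was at 20.8, 5.64 and 7.90 CPM, highest in library 1, and was not called with the marker covariates (adjusted p = 0.97). Without that library the complement list had 4 higher and 12 lower. In the coagulation list 5 of 27 members were higher and 2 lower, against 2 higher and 6 lower without library 1. Kng2, a kininogen, was separated higher at 936, 658 and 542 CPM against 230 to 532 CPM, and Cpb2 was separated lower. Kng2 was not separated without library 1 or with the marker covariates. Tfpi and F8, both made by endothelium, were called higher. F8 was at 25.7, 8.25 and 7.83 CPM and was not called without library 1 (adjusted p = 0.41).

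Of 29 apolipoproteins and lipoprotein enzymes, 5 were higher and 4 lower, against 1 higher and 7 lower without library 1. Angptl8, an inhibitor of lipoprotein lipase, rose by 1.43 on the log2 scale and was not called without that library (adjusted p = 0.093). Lpl, the lipase itself, had a change of -1.04 in the fit of all libraries. Its call was lost without library 2 (adjusted p = 0.089), without library 3 (0.070), without A/J (-0.68, 0.11) and with the marker covariates (-0.52, 0.41).

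Interferon-stimulated genes had 14 of 37 members higher and 5 lower (median 0.19), and 8 higher and 4 lower without library 1. With CAST/EiJ left out of the fit, 11 were higher and 8 lower (median 0.016). Mx2, an antiviral GTPase, was at 32.9, 50.7 and 27.8 CPM against 0.0255 to 46.0 CPM, with CAST/EiJ within 0.30 log2 units. Xaf1, which promotes cell death, rose by 1.95 ± 0.20, and DBA/2J was 0.51 log2 units higher still. Ifi27 was separated lower, at 4.39, 2.92 and 2.06 CPM against 9.10 to 96.3 CPM. Ifit3 had a change of -1.19 ± 0.31, and its call was lost without library 3 (-0.91, adjusted p = 0.055) and with the marker covariates (-0.59, 0.22). The separated members were Ifi27 and Ifi27l2a, both lower, and without library 1 only 1 member was separated. Immunity-related GTPases and guanylate-binding proteins had 7 of 18 higher and 3 lower (median 0.26). With CAST/EiJ left out, 5 of these were higher and 3 lower (median -0.098). Tgtp2 was at 5.51, 12.5 and 4.25 CPM against 0 to 12.9 CPM, with NZO/HlLtJ 0.21 log2 units higher. In class I antigen presentation 7 of 27 members were lower and 3 higher. H2-Q1 was at 0 to 0.0664 CPM against 0.674 to 20.3 CPM, while H2-Q2 was at 42.05, 31.2 and 23.6 CPM against 0 to 37.4 CPM, and counts of these similar genes are uncertain.

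In the growth hormone axis and sex-biased list, 7 of 30 members were higher and 7 lower. C6, Cyp7b1, Hsd3b5 (a steroid dehydrogenase) and Cyp4a12a, known as male-biased in mouse liver, were higher. So were Cyp3a41a (2.00 ± 0.32), Sult3a1 (1.42 ± 0.17) and Fmo2 (0.71 ± 0.20), known as female-biased. The lower members were Elovl3 (-2.54 ± 0.39), a male-biased elongase of fatty acids, Cyp2b9, Igfbp4, Nudt7, Prlr, Socs2 and Stat5a, with -0.49 to -1.28 for the last 6. The last 10 of these genes were chosen after their values were seen, and male-biased genes were not tested as a list of their own. Hsd3b5 was at 18.1, 17.6 and 28.8 CPM against 0.0460 to 33.5 CPM, with NOD/ShiLtJ 0.28 log2 units higher. Cyp4a12a was at 19.2, 9.24 and 8.43 CPM against 0 to 72.9 CPM, and was not called with the marker covariates (adjusted p = 0.070). Among transcription factors and nuclear receptors, 4 of 34 were higher and 4 lower, shares below those over all genes, and 2 and 3 without library 1. Onecut2 fell by 0.63 ± 0.16 and Nr2f2 rose by 0.69 ± 0.15. Pparg, below the level at which list members are named, was singled out after its values were seen. It was at 0.120, 0.0687 and 0.133 CPM against 0.337 to 6.73 CPM (-4.24 ± 0.64, edgeR adjusted p = 1.1e-05). In the circadian list, 1 of 19 members was higher and 1 lower. The higher call, of Cry2, was lost without library 1 (adjusted p = 0.063). Per2, a core repressor of the clock, was separated at 0.878, 0.756 and 1.06 CPM against 2.40 to 18.2 CPM. Its level swings over the day, and the time of day at which each mouse was taken is not in the labels. Metallothionein and antioxidant genes had 6 of 27 higher and 5 lower, against 7 higher and 1 lower without library 1. Aox1, aldehyde oxidase, was separated higher at 132, 196 and 227 CPM against 29.9 to 137 CPM, and Nqo1, a quinone reductase, rose by 0.77 ± 0.13.

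The list of unfolded protein response genes and chaperones had 6 of 28 members higher and 4 lower (median -0.19), against 5 and 2 without library 1. Its member Sdf2l1 was called lower (-0.92, edgeR adjusted p = 0.012), but not without library 3 (0.086). The heat-shock genes Hspa1a, Hspa1b and Hspb1 were called higher in the fit of all libraries. Hspa1b was at 5.63, 6.36 and 97.9 CPM, so library 3 stood far above its partners, and without library 3 its log2 fold change went from 2.03 to -0.59 (adjusted p = 0.49). Hspa1a and Hspb1 were not called without it either (0.74 and 0.49). The contrast for Hspa1a was positive (2.15) while its arithmetic mean was lower, 6.63 against 9.38 CPM. Of 16 immediate early genes tested, 2 were higher. Egr1 was at 52.9, 119 and 4.91 CPM and was not called without library 2 (adjusted p = 0.33).

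Of the 13 mitochondrially encoded proteins, 1 was higher and 2 lower. The higher call, of mt-Nd3, was lost in many settings, among them without library 1. With the marker covariates 8 of the 13 were lower (median -0.80). The cytochrome oxidase subunit gene mt-Co2 was at 24.6, 14.1 and 22.2 CPM against 830 to 2160 CPM, and mt-Nd4l at 11.02, 5.81 and 9.72 CPM against 162 to 475 CPM. The genes next to mt-Co2, mt-Co1 and mt-Atp8, were not called. Counts of both genes were divided between copies. The gene mt-Co2 was also summed with the pseudogenes Gm10925, Gm28437, Gm28661, Gm29216 and Gm13339. That sum, of which mt-Co2 was a small part, was 13984 to 20256 CPM in PWK/PhJ, inside 8044 to 25866 CPM elsewhere. Gm13339 was at 839, 556 and 585 CPM in PWK/PhJ. Its mean was 592 CPM in CAST/EiJ and 0.344 to 0.643 CPM in the remaining strains. Which copy gave the reads was not tested.

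Markers of other liver cells were called higher to differing extents, and many of these calls were lost without library 1. All 16 liver endothelial markers tested were called higher, with a median log2 fold change of 1.46, and 2 were separated: Lyve1 and Tek. Lyve1, a hyaluronan receptor of sinusoidal and lymphatic endothelium, was at 34.98, 12.5 and 21.5 CPM against 0.276 to 6.65 CPM (3.83 ± 0.32, edgeR adjusted p = 8.8e-10). Tek, the angiopoietin receptor, was at 32.3, 9.69 and 13.9 CPM against 1.43 to 8.50 CPM. Cdh5, the endothelial cadherin, was at 58.9, 18.1 and 20.9 CPM against 3.07 to 19.5 CPM. Library 1 was the highest for each of these. Without it 7 of 16 markers were called higher with a median of 0.80, and 1 marker was separated. Lyve1 then had a change of 3.40 (adjusted p = 1.6e-07) and Tek of 1.45 (0.0011). With the marker covariates, of which these genes are part, the changes were 2.09 and 0.49, and no endothelial marker was separated.

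Of 16 Kupffer cell and macrophage markers, 8 were higher and 1 lower (median 0.86), and 2 and 1 without library 1, when the median was 0.19. Clec4f, a receptor of Kupffer cells, was at 144, 51.5 and 51.8 CPM against 7.51 to 75.5 CPM, and its change went from 1.66 to 0.99 without library 1. Among 12 stellate cell and fibroblast markers 5 were higher (median 0.62), 2 were higher without library 1 (median 0.079), and with the marker covariates 1 was higher and 3 lower (median -0.58). Ecm1 was at 98.5, 66.4 and 72.3 CPM against 10.9 to 59.6 CPM, but Ecm1 was not called with the marker covariates (adjusted p = 0.14). Colec11 was separated at 17.1, 11.9 and 11.9 CPM against 2.06 to 8.02 CPM. Of 5 erythroid markers tested, 3 were higher and 1 lower (median 1.94). The lower one, Alas2, was the only separated member, at -3.17 (-2.96 with the marker covariates, edgeR adjusted p = 6.4e-07). Without library 1, 1 was lower and no other passed the edgeR test (median 1.05). Of 14 hepatocyte markers only Pck1 was called, and its call was lost without library 1. With the marker covariates 2 hepatocyte markers were lower, and Pck1 was not called (adjusted p = 0.072). Of the 2 cholangiocyte markers that passed the filter, neither was called in the fit of all libraries, 1 was higher without library 1 and both were higher with the marker covariates. With the endothelial and Kupffer list means as covariates, 235 genes were separated higher and 340 lower, and 399 of the 649 were separated in both fits. In that fit Gsn had a log2 fold change of 7.87 (edgeR adjusted p = 3.5e-14) and Tfpi of 0.81 (0.0092), against 2.28 for Tfpi without the covariates, and F8 was not called (-0.35, adjusted p = 0.20). The split of calls also turned for the acute phase list (3 higher and 7 lower), the coagulation list (2 and 13), the chaperones (3 and 6) and the apolipoproteins and lipoprotein enzymes (2 and 11). Lower calls rose in number for complement (18 of 30) and the clade A serpins (10 of 20), and dropped for interferon-stimulated genes (2 of 37), antioxidant genes (2 of 27) and fatty acid oxidation (5 of 31, with 2 higher and a median of 0.18). Calls were 5 higher and 1 lower for the urea cycle list, and 1 higher and 8 lower for class I antigen presentation. The class II genes H2-Ab1 and H2-Aa were at 63.2, 33.0 and 26.8 CPM and at 73.3, 32.8 and 32.4 CPM, each highest in library 1, with at most 15.0 and 27.5 CPM in the other strains, and the covariate fit was not examined for them.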

How the data were processed

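Expression was measured by RNA sequencing in 27 libraries, 3 per strain. The authors deposited a table of estimated counts (each an expected count per Ensembl gene), which is not scaled to depth. Of its values, 14.7% were not whole. Per the submitters' processing notes, GRCm38 (mm10), FastQC 0.11.5 and DESeq2 were used; the aligner, the counter, and whether strain genomes were used are not given in the sources used here, and this can change the counts of a divergent strain. Counts were rounded to whole numbers. GENCODE M21 named 42462 of 43346 gene IDs and gave positions. In R 4.3.3, edgeR 4.0.16 (filterByExpr by strain, TMM factors, quasi-likelihood F test) was fitted to all 27 libraries with strain as the factor. The contrast of PWK/PhJ with the mean of the 8 other strains, on the log scale, and the 8 pairwise tests each had Benjamini-Hochberg adjustment over 14482 genes; 0.05 was the threshold. Standard errors come from the F statistic. CPM uses TMM-scaled library sizes, and list levels are mean log2 CPM with a prior count of 2. Genes were counted as barely detected at 3 counts or fewer, which covers counting error only. P-values measure the spread between the libraries of a strain.

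Named genes were, among separated genes, the 7 largest changes per direction with at least 10 CPM in the higher group and mostly whole counts, the 4 largest per direction with counts not whole in 14 or more libraries, and the 4 largest per direction above 100 CPM; and, in each list, up to 4 called members with at least 5 CPM. Genes without a symbol, predicted genes, pseudogenes and Mup genes were passed over. The members and lists were chosen with earlier results of these data known. Promoter sequences are from RefSeq (GRCm38.p6). The script was tested on simulated data. Alternatives are named in the closing section. The text describes only some of the 136 genes that the rule selects.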

Additional observations from a re-analysis of the deposited data

How the results depend on the processing

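The 4 counts (2812 genes higher, 2138 lower, 323 separated higher, 326 separated lower) were within 1.5 times their values under DESeq2 1.42.0 and its size factors, with every gene kept, with genes averaging 10 counts or more, with the marker lists as covariates, with each other strain left out and each library left out. At an adjusted p under 0.01, 1385 genes were lower, 184 separated higher and 211 separated lower. Against the 6 classical strains only, 548 were separated lower. Leaving out each of the 27 libraries gave 2089 to 2954 genes higher, 1562 to 2222 lower, 247 to 332 separated higher and 259 to 326 separated lower. With the replicate number as a replicate block, 2535 genes were higher, 1902 lower, 230 separated higher and 272 separated lower, and 490 of the 649 were separated in both fits. The numbers share no stated animal, litter or day across strains. Mean correlations of deviations from the strain means between same-numbered PWK/PhJ and other libraries were -0.15, -0.03 and -0.06, so the numbers were not taken as pairing.

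The remaining 2 alternatives were chosen after seeing the data. Removing a trend on GC content from each library left all 4 counts within 1.5 times. Leaving out PWK/PhJ library 1 with the marker lists as covariates gave 214 genes separated higher. Of the 136 named genes, 110 kept their call with the covariates and 116 without PWK/PhJ library 1. Signs turned for Dcn (-0.12), F8 (-0.35) and Rgs5 (-0.43) with the covariates, for F8 (-0.44), Rgs5 (-0.32) and mt-Nd3 (-0.0098) with the covariates and without library 1, and for Hspa1b without PWK/PhJ library 3 (-0.59, the lowest of -0.59 to 2.54 over the fits that leave out a library). The cause was not tested. With 3 libraries, small changes at low counts may be missed.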

Other observations

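The major urinary protein genes, which encode secreted pheromone carriers and were passed over by the naming rule, held a run of 2 separated neighbours, Mup6 and Mup7, both higher in PWK/PhJ. Mup7 was at 3363, 640 and 936 CPM in the 3 libraries, against 16.7 to 219 CPM in the other strains, with counts divided between copies. Rpl13, the neighbour of Sult5a1 on chromosome 8, was at 82.6, 94.9 and 106 CPM, against 24.3 to 66.2 CPM, also with divided counts. Pnpla5, the neighbour of Pnpla3, was at 1.60, 3.06 and 1.49 CPM, against at most 0.251 CPM. These genes were chosen after their values were seen.

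Of the genes called by the contrast, 47 had an arithmetic mean difference of the opposite sign, and 0 of the separated genes did. Of the 4950 called genes, 712 passed all 8 pairwise tests, in whichever direction, and 17 passed none of them.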
